A study of Mus musculus with 64 samples.

Results

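The liver makes most of the proteins that clot blood and most of the complement proteins of plasma, and 37 genes for them were followed here in the liver RNA-seq of mice given corticosterone (CORT) or vehicle for 5 days. The 37 were taken from a named list (7 coagulation factors, 3 contact system genes, 4 anticoagulants, 3 genes of fibrinolysis, 5 of the classical and 4 of the lectin complement pathway, 3 of C3 and the alternative pathway, 7 of the terminal pathway, and Ahsg), out of 55573 gene identifiers in the count table. All 37 were found, and all 37 were among the 12273 genes that passed the filter on low counts in liver. The 20 livers came from 4 groups of 5 male mice aged 10 to 18 weeks, F1 hybrids of C57BL/6J fathers and 129sv mothers. WT mice carried both Ube3a alleles, and AS mice, a model of Angelman syndrome, carried Ube3a m-/p+, that is a maternally inherited deletion of an exon with an intact paternal allele. Each mouse had a pellet under the skin, with 20 mg CORT in cholesterol or with cholesterol alone (vehicle). The paternal allele of Ube3a is active outside neurons, and the AS liver is not a null. Ube3a lay between 28.5 and 38.6 counts per 1000000 reads (CPM) in the 10 AS livers and between 41.8 and 54.4 CPM in the 10 WT livers, without overlap. Groups were compared over mice, and each library is named by its label (L1 to L20). Where 5 values of a group are listed, they stand in the order L1, L4, L6, L13 and L17 (WT vehicle), L3, L5, L12, L15 and L20 (WT CORT), L2, L9, L11, L14 and L19 (AS vehicle), and L7, L8, L10, L16 and L18 (AS CORT).

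Blood clotting proceeds as a cascade in which one protease cleaves the next, from factors VII, IX, X, XI and XII down to prothrombin, and ends in fibrin. Anticoagulants such as antithrombin and the protein C and protein S pair hold the cascade in check, and plasmin dissolves the clot. Complement is another protease cascade: the classical and lectin routes and the alternative route all cleave C3, after which C5 to C9 assemble a pore in the target membrane. Glucocorticoids act on hepatocytes through the glucocorticoid receptor, Nr3c1, and are known to alter the synthesis of many plasma proteins.

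Promoters of members that rose or fell by a large margin are shown first, so that the genes behind the values can be seen. Of the 37 genes, 29 matched the RefSeq promoter table (GRCm38.p6), which holds 250 bases before and 50 bases after each start; Kng1, Proc, Plg, C2, C4b, Masp1, Cfb and Cfi had no entry. The 250 bases before the start are printed for F9 and C4bp, the largest rises, and for C8a and Pros1, the largest falls among genes with an entry. F9 is at chrX:59999214-59999463 (+ strand), C4bp at chr1:130661619-130661868 (- strand), C8a at chr4:104876399-104876648 (- strand) and Pros1 at chr16:62854057-62854306 (+ strand). Each runs 5′ to 3′ on the strand of its gene, and capitals mark matches to TTCNNNGAA, the STAT motif, or to GTTAAT, a half-site of HNF1.
F9: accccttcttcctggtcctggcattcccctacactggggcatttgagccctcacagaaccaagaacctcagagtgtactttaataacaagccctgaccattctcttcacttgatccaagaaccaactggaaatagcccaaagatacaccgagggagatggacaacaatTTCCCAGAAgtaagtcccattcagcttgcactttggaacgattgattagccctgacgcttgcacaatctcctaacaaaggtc
C4bp: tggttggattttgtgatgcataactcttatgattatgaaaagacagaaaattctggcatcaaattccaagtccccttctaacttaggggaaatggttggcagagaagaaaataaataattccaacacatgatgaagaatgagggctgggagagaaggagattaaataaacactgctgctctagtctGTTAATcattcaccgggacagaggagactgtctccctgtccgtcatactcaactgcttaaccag
C8a: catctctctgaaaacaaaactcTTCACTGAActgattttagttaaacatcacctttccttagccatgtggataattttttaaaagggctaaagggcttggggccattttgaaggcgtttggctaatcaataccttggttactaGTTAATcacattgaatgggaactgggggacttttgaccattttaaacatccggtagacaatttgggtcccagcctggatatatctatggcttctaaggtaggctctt
Pros1: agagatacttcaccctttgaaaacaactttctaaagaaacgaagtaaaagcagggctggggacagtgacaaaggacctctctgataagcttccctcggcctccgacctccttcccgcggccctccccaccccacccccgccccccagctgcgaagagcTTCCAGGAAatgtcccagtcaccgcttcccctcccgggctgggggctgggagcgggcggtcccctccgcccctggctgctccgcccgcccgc
TTCNNNGAA, searched on both strands, was in 6 of the 31 member promoters (C1s1 and C8g have 2 starts each) and in 8.3% of all 32851 promoters. GTTAAT was in 8 of the 31 and in 7.1% of all. AGAACA, the half-site of the glucocorticoid receptor, was in 14 of the 31 and in 19% of all promoters. By gene, AGAACA was in 3 of 9 members that rose with CORT, 4 of 11 that fell and 6 of 9 that passed in neither direction. The full receptor motif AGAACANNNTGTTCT, the C/EBP motif TTGCGCAA and the HNF4 motif CAAAGTCCA were in none of the 31, and in 0.00913%, 0.183% and 0.475% of all promoters. These are matches of letters only, and they say nothing about binding.

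The livers were sequenced evenly, with between 18612550 and 20868924 reads on genes, so that 3 reads correspond to 0.144 to 0.161 CPM. Albumin (Alb) and the other hepatocyte markers were abundant throughout, and their summed level was 98490 to 129500 CPM with vehicle and 105400 to 145600 CPM with CORT. Fkbp5 and Tsc22d3, classical targets of the glucocorticoid receptor, rose by 3.78 ± 0.22 and 1.49 ± 0.082 on the log2 scale. Of the 8 such targets listed, 4 rose (also Pck1 and Klf9), none fell, and Per1, Sgk1, Tat and Dusp1 did not pass. With the percentage of unaligned reads, described next, as a covariate, Pck1 went from 0.94 to 0.59 ± 0.58 (adjusted p = 0.548) and Klf9 from 0.41 to 0.61 ± 0.22 (adjusted p = 0.0730), and neither passed. Nr3c1 fell by 0.19, and Alb rose by 0.23 ± 0.073 (edgeR, adjusted p = 0.0159). The call of Alb was lost with that covariate (0.31 ± 0.14, adjusted p = 0.148). It was also lost without the 6 mice described below (0.25, adjusted p = 0.0557). Some properties of the libraries moved with the groups. Reads that did not align made up 5.39 to 8.93% of all reads in WT vehicle, 4.52 to 6.69% in AS vehicle, 3.20 to 4.77% in WT CORT and 1.49 to 3.23% in AS CORT livers. Reads set aside because they overlapped more than 1 gene made up 2.845 to 3.4% of all reads in the 10 vehicle livers and 3.404 to 3.893% in the 10 CORT livers, without overlap, and their part in the values of C2, Cfb and Klkb1, which share exons with other genes, was not tested. In addition, 6 mice (L1 and L4 of WT vehicle, L3 of WT CORT, L2 of AS vehicle, L7 and L8 of AS CORT) had Dbp, a clock gene, at 60.0 to 237 CPM and Arntl, a clock gene of opposite phase, at 0.289 to 5.03 CPM, where the other 14 mice had Dbp at 0.653 to 4.21 CPM and Arntl at 26.4 to 40.6 CPM. The labels do not give the time of collection of each mouse, and the counts of members that passed with CORT are given with and without these 6 mice.

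CORT changed the RNA level of most of these genes, in both directions. Averaged over genotypes, 10 of the 37 members (27%) rose and 13 (35.1%) fell at an adjusted p under 0.05 (edgeR quasi-likelihood test, Benjamini-Hochberg over all genes), beside 17.5% and 19.6% of all genes tested. Of 18 other plasma proteins of hepatocytes, none of them a member, 7 rose and 5 fell. The changes were small: the median absolute log2 fold change was 0.18 over the members and 0.16 over all genes, and the signed medians were -0.047 and -0.0035. The members were also measured more tightly, with a median standard error of 0.055 against 0.087 for all genes, and a median within-group SD of log2 CPM of 0.11 against 0.19. All 10 CORT livers lay above all 10 vehicle livers for 4 members (F9, F12, C4bp and Cfi, against 3.14% of all genes) and below them for 4 (Pros1, C1ra, C2 and C4b, against 3.4% of all genes). Without the 6 mice high in Dbp, 21 of the 23 kept their call (F13b and C8b did not), and all 23 kept their direction, also in those 6 mice alone, where 4 passed (F9, Pros1, C2 and C4bp). With the percentage of unaligned reads as a covariate, which follows both treatment and genotype, 11 of the 23 kept their call and 21 kept their direction. Standard errors were wider in that fit, with a median of 0.099 over the members against 0.055. Of the 12 that lost their call, F2, F12 and C1s1 were at larger values than without the covariate, and F10 and Hc kept 0.871 and 0.783 of theirs. F13b, Klkb1, Serpinf2, C1ra and C8a kept 0.167 to 0.622 of theirs, and F11 and C8b changed sign. Of the 11 that kept their call, C4b went from -0.32 to -0.50 ± 0.092 and Cpb2 from 0.19 to 0.34 ± 0.086. Treatment and what moves with the unaligned reads cannot be told apart in these livers.

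**Figure D1:**
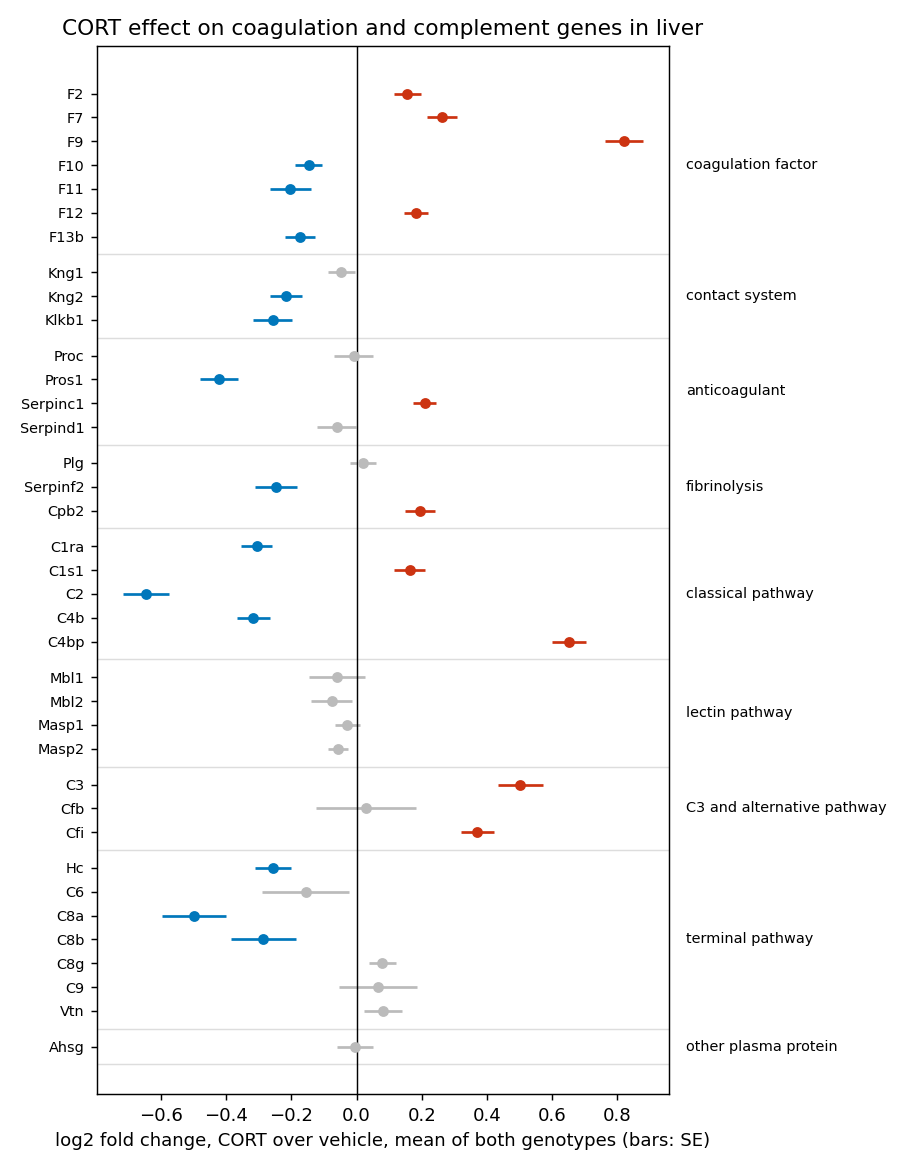
Points give the log2 fold change of each of the 37 genes with CORT, averaged over WT and AS mice, and bars the standard error (edgeR, 10 CORT and 10 vehicle livers); red genes rose and blue genes fell at an adjusted p under 0.05, and grey genes did not pass. F9 at 0.82 and C2 at -0.65 are the extremes, and none of the 4 lectin pathway genes passed.

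Among the 7 coagulation factors, all of which passed, 4 rose and 3 fell. F9, which encodes factor IX, the protease lacking in haemophilia B, rose most. In WT mice F9 was at 152, 172, 169, 172 and 166 CPM with vehicle and 267, 286, 293, 304 and 304 CPM with CORT. The AS livers held 159, 165, 185, 169 and 183 CPM of F9 with vehicle and 292, 246, 293, 361 and 339.7 CPM with CORT. Every CORT liver of either genotype was above every vehicle liver, and F9 rose by 0.82 ± 0.058 on the log2 scale (1.76-fold, adjusted p = 1.91e-09). F7, factor VII, which starts clotting together with tissue factor, rose by 0.26 ± 0.046 (adjusted p = 0.000139). In WT mice F7 was at 124, 131, 116, 117 and 114 CPM with vehicle and 138, 138, 131, 144 and 124 CPM with CORT. F7 in AS mice was at 127, 127, 121, 112 and 121 CPM (vehicle) and at 178, 145, 143, 155 and 160.4 CPM (CORT). The WT groups overlapped and the AS groups did not. F12, factor XII of the contact phase, rose by 0.18 ± 0.038 (adjusted p = 0.000750). In WT mice F12 was at 455, 478, 462, 440.2 and 443 CPM with vehicle and 528, 566, 495, 519 and 501 CPM with CORT. In AS mice it was at 479, 482, 437, 486 and 442 CPM with vehicle and 548, 535, 499, 498 and 532 CPM with CORT. The change of F12 was small, with the lowest CORT liver (495 CPM) just above the highest vehicle liver (486 CPM). F2, prothrombin, rose by 0.16 ± 0.041 (adjusted p = 0.00572) within a range of 1660 to 2284 CPM over the 20 livers.

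The 3 factors that fell changed by 0.15 to 0.20. F11, factor XI, fell by 0.20 on the log2 scale (SE 0.063, adjusted p = 0.0157), F13b, the carrier subunit of the fibrin-stabilizing factor, by 0.17 (SE 0.046, adjusted p = 0.00560), and F10, factor X, by 0.15 (SE 0.042, adjusted p = 0.00907). For each, CORT and vehicle livers overlapped. Without a filter on low counts F11 and F10 missed the threshold (adjusted p = 0.0507 and 0.0758). With the unaligned reads as a covariate F2 was at 0.23 ± 0.081, F12 at 0.20 ± 0.076, F10 at -0.13 ± 0.085, F13b at -0.11 ± 0.093 and F11 at 0.030 ± 0.12, and none of the 5 passed (adjusted p from 0.0604 to 0.905).

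**Figure D2:**
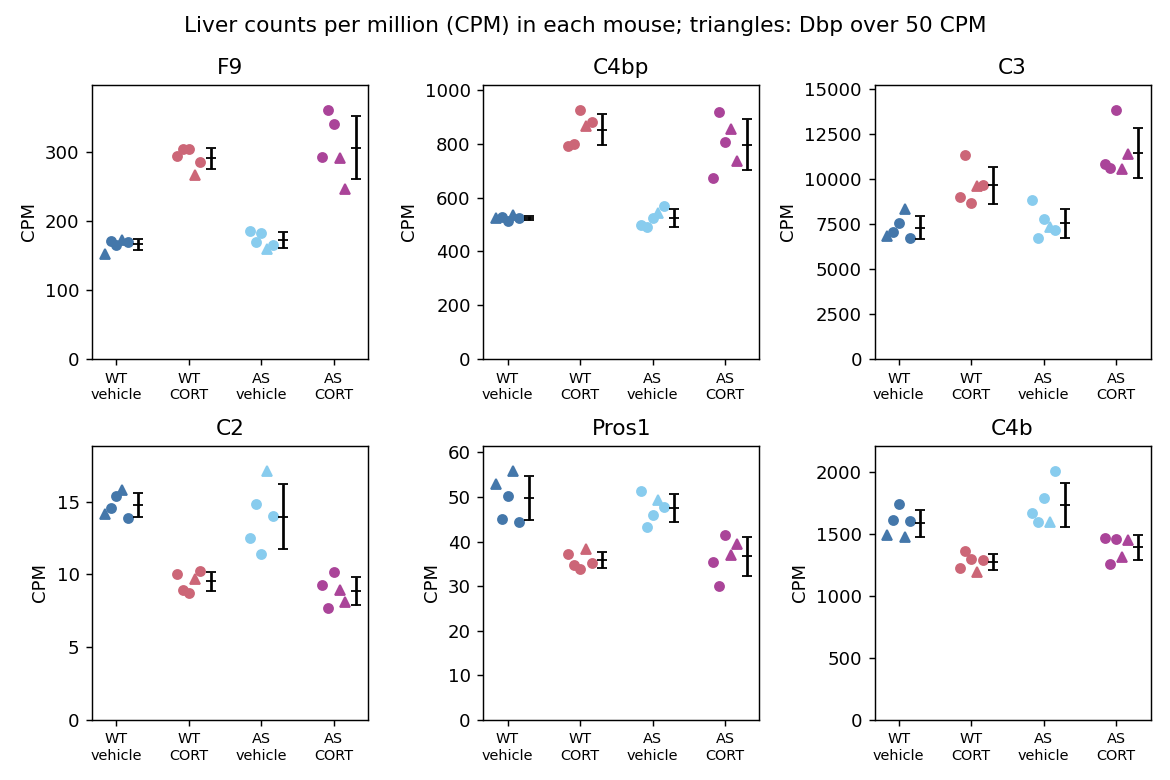
Each point is the liver of 1 mouse in CPM on a linear axis from 0 (5 mice a group); triangles are mice with Dbp over 50 CPM, and black marks give the mean and SD. F9 and C4bp lie higher, and C2, Pros1 and C4b lower, in all CORT livers than in any vehicle liver, while the C3 ranges meet (vehicle up to 8820 CPM, CORT from 8635 CPM).

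In the contact system, where prekallikrein and kininogen work with factor XII, 2 of the 3 members fell and none rose. Kng2, one of 2 mouse kininogen genes, fell by 0.22 (SE 0.049, adjusted p = 0.00158). In WT mice Kng2 was at 250.4, 275, 231, 243 and 273 CPM with vehicle and 226, 222, 197, 226 and 202 CPM with CORT. The AS livers held 287, 266, 260.2, 236 and 242 CPM of Kng2 with vehicle and 242, 212, 242, 224 and 214 CPM with CORT. The treatments did not overlap in WT mice and overlapped in AS mice. Its neighbour Kng1, more abundant at 599.8 CPM per kilobase of exon against 87.3 for Kng2, was at -0.047 ± 0.042 and did not pass (adjusted p = 0.419); reads could be shared between the 2 genes. Klkb1, prekallikrein, fell by 0.26 (SE 0.060, adjusted p = 0.00208), but 2267 of its 5249 exon bases also belong to a readthrough gene, and its count rests on the rest. Klkb1 was at -0.043 ± 0.11 with the unaligned reads as a covariate (adjusted p = 0.847).

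Among the 4 anticoagulants 1 rose and 1 fell. Pros1, protein S, the cofactor of protein C, fell by 0.42 (SE 0.058, 0.747-fold, adjusted p = 9.80e-06). In WT mice Pros1 was at 52.8, 55.9, 44.3, 45.1 and 50.1 CPM with vehicle and 38.4, 35.1, 37.1, 34.8 and 33.8 CPM with CORT. Pros1 in AS mice was at 49.3, 47.9, 51.4, 43.2 and 45.9 CPM (vehicle) and at 37.1, 39.4, 35.5, 30.03 and 41.6 CPM (CORT). The highest CORT liver (41.6 CPM) was below the lowest vehicle liver (43.2 CPM). Serpinc1, antithrombin, the main plasma inhibitor of thrombin, rose by 0.21 ± 0.036 (adjusted p = 0.000134). In WT mice Serpinc1 was at 2284, 2252, 2397, 2359 and 2248 CPM with vehicle and 2644, 2858, 2599, 2733 and 2642 CPM with CORT. In AS mice it was at 2501, 2657, 2422, 2529 and 2338 CPM with vehicle and 2942, 2726, 2771, 2878 and 2917 CPM with CORT. The CORT livers were higher than the vehicle livers of the same genotype in each case. Proc, protein C, at -0.0092 ± 0.059, and Serpind1, heparin cofactor II, at -0.061 ± 0.059, did not pass (adjusted p = 0.922 and 0.453).

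Of the 3 genes of fibrinolysis, 1 rose, 1 fell and 1 did not pass. Cpb2, which protects clots from plasmin, rose by 0.19 ± 0.047 (adjusted p = 0.00265), Serpinf2, the inhibitor of plasmin, fell by 0.25 (SE 0.065, adjusted p = 0.00549), and Plg, plasminogen, was at 0.020 ± 0.041 (adjusted p = 0.744). Plg was at -0.019 under upper-quartile scaling, which moved the median of all genes from -0.0035 to -0.042, and no direction is given for it. Serpinf2 was at -0.091 ± 0.13 with the unaligned reads as a covariate (adjusted p = 0.688).

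All 5 members of the classical complement pathway passed, 3 lower and 2 higher. C2, the protease part of the C3 convertase, fell most of all 37 members, by 0.65 (SE 0.070, 0.639-fold, adjusted p = 4.73e-07). In WT mice C2 was at 14.2, 15.8, 13.9, 14.6 and 15.4 CPM with vehicle and 9.71, 10.2, 9.99, 8.91 and 8.73 CPM with CORT. The AS livers held 17.1, 14.01, 12.5, 14.8 and 11.4 CPM of C2 with vehicle and 8.96, 8.13, 9.27, 7.69 and 10.2 CPM with CORT. No CORT liver reached any vehicle liver. Of the 3872 exon bases of C2, 1656 are shared with a readthrough gene on the same strand, and its counts come from the other 2216 bases. C4b, the C4 of plasma, fell by 0.32 (SE 0.052, adjusted p = 6.87e-05). In WT mice C4b was at 1490, 1478, 1609, 1616 and 1741 CPM with vehicle and 1192, 1291, 1227, 1364 and 1297 CPM with CORT. C4b in AS mice was at 1596, 2014, 1675, 1595 and 1794 CPM (vehicle) and at 1315, 1456, 1473, 1260 and 1463 CPM (CORT). The groups met without overlap, at 1473 CPM with CORT and 1478 CPM with vehicle. The near-identical C4a rose by 0.59 ± 0.18 (adjusted p = 0.0152), and reads could be split between the 2 genes, so both values are uncertain. C1ra, a protease of the C1 complex, fell by 0.31 (SE 0.048, adjusted p = 4.50e-05). In WT mice C1ra was at 293, 304, 266, 272 and 271 CPM with vehicle and 235, 229, 219.5, 229 and 208 CPM with CORT. In AS mice it was at 319.9, 285, 304, 278 and 267 CPM with vehicle and 264, 215, 218, 241 and 256 CPM with CORT. The lowest vehicle liver (266 CPM) was above the highest CORT liver (264 CPM). Its partner C1s1 went the other way and rose by 0.16 ± 0.047 (adjusted p = 0.00989), with overlap between treatments; both have close paralogs. C1ra was at -0.16 ± 0.090 and C1s1 at 0.25 ± 0.092 with the unaligned reads as a covariate (adjusted p = 0.266 and 0.0786).

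C4bp, an inhibitor that acts on C4b, rose by 0.65 ± 0.052 (1.57-fold, adjusted p = 8.77e-09), the second largest rise. In WT mice C4bp was at 525, 535, 524, 529 and 513 CPM with vehicle and 865, 882, 791, 801 and 927 CPM with CORT. The AS livers held 543, 569.9, 499, 489.8 and 523 CPM of C4bp with vehicle and 854, 737, 672, 917 and 806 CPM with CORT. The vehicle livers were close together and every CORT liver lay above them.

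None of the 4 members of the lectin pathway passed. Mbl1 and Mbl2, the mannose-binding lectins, were at -0.060 ± 0.087 and -0.077 ± 0.063, and Masp1 and Masp2, their proteases, at -0.028 ± 0.038 and -0.058 ± 0.031 (adjusted p from 0.157 to 0.631). Masp2 had the smallest within-group SD of all members (0.042 on the log2 scale). Under upper-quartile scaling Masp2 went from -0.058 to -0.096 (adjusted p = 0.0240), about the shift of the median of all genes.

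Of C3 and its partners, 2 of 3 rose. C3, on which all complement routes meet, rose by 0.50 ± 0.069 (1.42-fold, adjusted p = 8.75e-06). In WT mice C3 was at 6809, 8315, 6739, 7045 and 7529 CPM with vehicle and 9578, 9684, 9002, 11310 and 8635 CPM with CORT. C3 in AS mice was at 7305, 7135, 8820, 6696 and 7760 CPM (vehicle) and at 10570, 11360, 10800, 10600 and 13830 CPM (CORT). The AS groups did not overlap and the WT groups did not either, although the lowest CORT liver of all (8635 CPM) was below the highest vehicle liver (8820 CPM). Cfi, the protease that inactivates C3b and C4b, rose by 0.37 ± 0.051 (adjusted p = 9.01e-06). In WT mice Cfi was at 594, 626, 588, 574 and 608 CPM with vehicle and 750.1, 853, 714, 807 and 705 CPM with CORT. In AS mice it was at 600.1, 647, 664, 555 and 605 CPM with vehicle and 858, 729.9, 719, 809 and 888 CPM with CORT. All 10 CORT livers were above all 10 vehicle livers. Cfb, factor B of the alternative route, was at 0.029 ± 0.15 (adjusted p = 0.906); it shares 2246 of its 2825 exon bases with the readthrough gene, leaving 2.58 to 6.21 CPM and the largest within-group SD of all members (0.35).

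In the terminal pathway 3 of 7 members fell and none rose. C8a and C8b, chains of C8, fell by 0.50 (SE 0.097, adjusted p = 0.000425) and 0.29 (SE 0.099, adjusted p = 0.0290). In WT mice C8a was at 386, 461, 401, 391 and 432 CPM with vehicle and 271, 357, 314, 297 and 228 CPM with CORT. The AS livers held 346, 365, 422, 322 and 374 CPM of C8a with vehicle and 284, 202, 205, 246 and 358 CPM with CORT. The WT groups of C8a did not overlap, and the AS groups did. L18 was the highest of the AS CORT livers in C8a, C8b, C6 and C9, and L5 the highest of the WT CORT livers in the same 4 genes. Leaving out any 1 of 5 mice (L4, L8, L11, L16 or L20) ended the call of C8b (adjusted p up to 0.0617). Hc, which encodes C5, fell by 0.26 (SE 0.055, adjusted p = 0.000961). In WT mice Hc was at 1028, 1050, 1063, 1154 and 1201 CPM with vehicle and 811, 934, 899, 926 and 852 CPM with CORT. Hc in AS mice was at 881, 967, 1117, 943 and 1055 CPM (vehicle) and at 786, 809, 866, 849.9 and 1009 CPM (CORT). The WT groups of Hc did not overlap, and the AS groups did. C8g, the third chain of C8, C6, C9 and Vtn, vitronectin, did not pass (adjusted p from 0.141 to 0.714), nor did Ahsg, fetuin-A, the most abundant member per kilobase of exon (-0.0058 ± 0.055, adjusted p = 0.949). With the unaligned reads as a covariate Hc was at -0.20 ± 0.11, C8a at -0.12 ± 0.17 and C8b at 0.17 ± 0.17, and none of these passed (adjusted p = 0.237, 0.689 and 0.552), while C9 passed at 0.78.

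**Figure D3:**
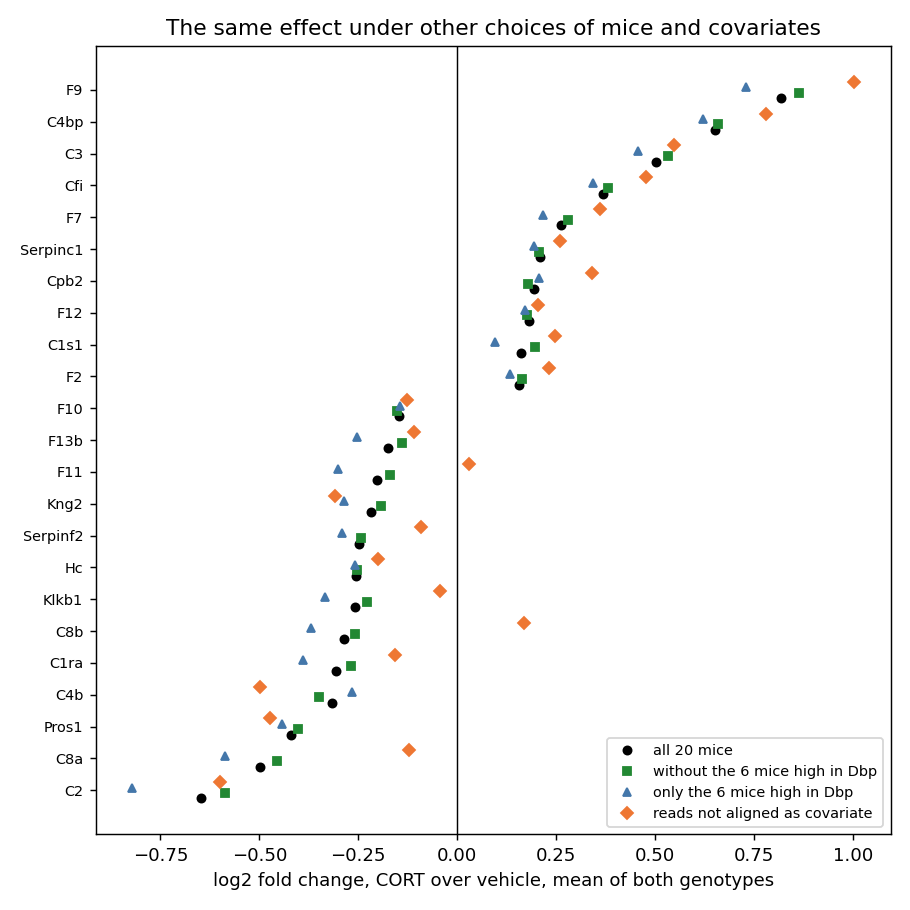
Log2 fold changes with CORT of the 23 genes that passed, averaged over genotypes, in all 20 mice (black), without the 6 mice high in Dbp (green), in those 6 alone (blue), and with the percentage of unaligned reads as a covariate (orange). The 10 that rose stay above 0 in every case, while F11 and C8b cross 0 with the covariate (0.030 and 0.17).

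The study asked whether loss of maternal Ube3a changes the response to CORT, and each genotype was therefore tested by itself before the difference. In WT mice 6 members rose and 10 fell, beside 8.73% and 9.9% of all genes. In AS mice 10 rose and 7 fell, beside 12.6% and 15%. Of these, 11 (29.7% of the 37) passed in both genotypes, all in the same direction, beside 13.6% of all genes, and 30 (81.1%) had the same sign in both, beside 73.4% of all genes. Without the 6 mice high in Dbp, 11 of the 16 calls in WT mice remained (F11, F13b, Kng2, Serpinc1 and C8a were lost, adjusted p from 0.0507 to 0.0939). In AS mice 12 of the 17 remained without them (F12, Serpinc1, Serpinf2, C6 and C8a were lost, adjusted p from 0.0576 to 0.157). All of these calls kept their direction without the 6 mice. With the unaligned reads as a covariate 9 of the 16 and 8 of the 17 remained. Lost in WT mice were F11, F12, F13b, Klkb1, C1ra, Hc and C8a (adjusted p from 0.0764 to 0.525). Lost in AS mice were F2, F12, Pros1, Serpinc1, Serpinf2, C1ra, C1s1, C6 and C8a (adjusted p from 0.0536 to 0.92). In WT mice the calls of F12, F13b and Kng2 were lost without a filter on low counts (adjusted p from 0.0559 to 0.0795). In AS mice F12, Serpinf2 and C6 were lost without a filter (adjusted p from 0.0569 to 0.0716), F12, Serpinf2, C1s1 and C6 when only the AS groups were fitted (adjusted p from 0.0501 to 0.0815), F12 with upper-quartile scaling (0.12, adjusted p = 0.0816), and C6 with DESeq2 size factors, 1 surrogate variable or Dbp as a covariate (adjusted p from 0.0528 to 0.0729). Directions did not change in these fits, other than that of C6 in AS mice with the unaligned reads as a covariate. F12 is 1 of the 11 that passed in both genotypes. C6 was among those that fell in AS mice (-0.52 ± 0.19, adjusted p = 0.0486). That call was lost in 16 of 20 fits that each left out 1 mouse, with adjusted p from 0.0501 to 0.128, while over all 20 fits the log2 fold change ran from -0.72 to -0.42. The AS calls of F12 and Serpinf2 were each lost in 3 such fits (adjusted p up to 0.0715 and 0.0697). That of C1s1 was lost in 1 (adjusted p = 0.0507). C6 was at 0.098 in AS mice with the unaligned reads as a covariate (adjusted p = 0.877). F7 was at 0.16 ± 0.065 in WT and 0.36 ± 0.065 in AS mice, and C3 at 0.40 ± 0.097 and 0.60 ± 0.097. No member passed the test of the difference between the 2 responses, as no gene did (0% of all genes). By edgeR 995 genes (8.11%) had an unadjusted p under 0.05 in it, of which 4 were members (10.8% of the 37): F7, Plg, Mbl2 and C6. By DESeq2 9 genes passed that test, none of them a member. A p that misses the threshold does not show that the responses are equal: the median standard error of the difference was 0.11 on the log2 scale.

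**Figure D4:**
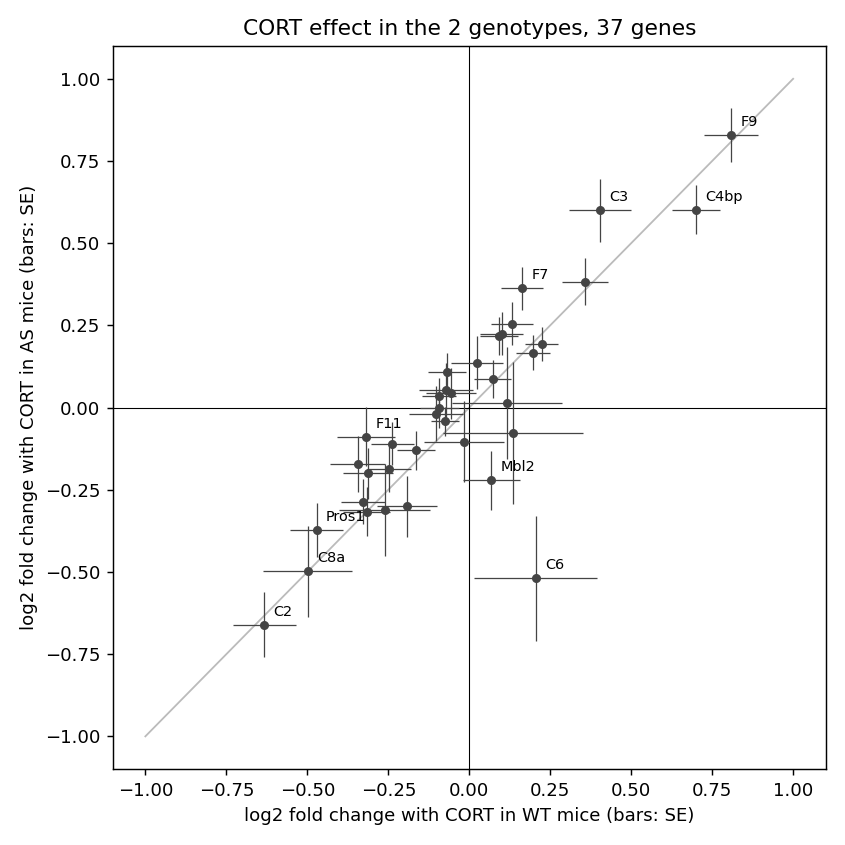
Log2 fold change with CORT in WT mice (horizontal) and AS mice (vertical) for the 37 genes, with standard errors and the line of equality. The sign was the same in both genotypes for 30 of the 37 genes, and C6 lies farthest from the line, at 0.21 in WT and -0.52 in AS mice.

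With vehicle, no member passed between AS and WT livers, beside 0.0163% of all genes. The median log2 difference over members was 0.020, 3 members (8.11%) had an unadjusted p under 0.05 (F11, Serpinc1 and Mbl2), beside 10.3% of all genes, and none passed by DESeq2, which called 44 genes. With CORT, C6 passed, 1 of 37 beside 0.277% of all genes. An unadjusted p under 0.05 was found there for 9 members (24.3%), beside 8.29% of all genes: C6 was lower in AS mice, and F2, F7, F10, Plg, Cpb2, Masp2, C3 and Ahsg were at higher values, without passing the adjusted threshold. C6 encodes the terminal component that joins C5b. In WT mice C6 was at 210.3, 263, 286, 222 and 242 CPM with vehicle and 233, 363, 335, 275 and 205 CPM with CORT. In AS mice it was at 152, 185, 227, 221 and 202 CPM with vehicle and 158, 113, 105, 101 and 212 CPM with CORT. AS CORT livers were lower than WT CORT livers except that L18 (212 CPM) was above L20 (205 CPM), and the log2 difference was -1.03 ± 0.19 (adjusted p = 0.0207). With vehicle the difference was -0.31 ± 0.19 (adjusted p = 0.596). The difference between the CORT responses of the genotypes was -0.72 ± 0.27 for C6 (adjusted p = 0.508). The call of C6 was lost when L5, L12, L8 or L16 was left out, at log2 differences of -0.93, -0.96, -0.97 and -0.94 (adjusted p = 0.0869, 0.0737, 0.0839 and 0.0742). It was also lost without the 6 mice high in Dbp (-1.08, adjusted p = 0.113), when only the groups compared were fitted (-1.03, adjusted p = 0.109), and with the unaligned reads as a covariate (-0.67, adjusted p = 0.269). By DESeq2 C6 passed, and so did Plg, which was higher in AS mice (0.21, SE 0.052, adjusted p = 0.0147).

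**Figure D5:**
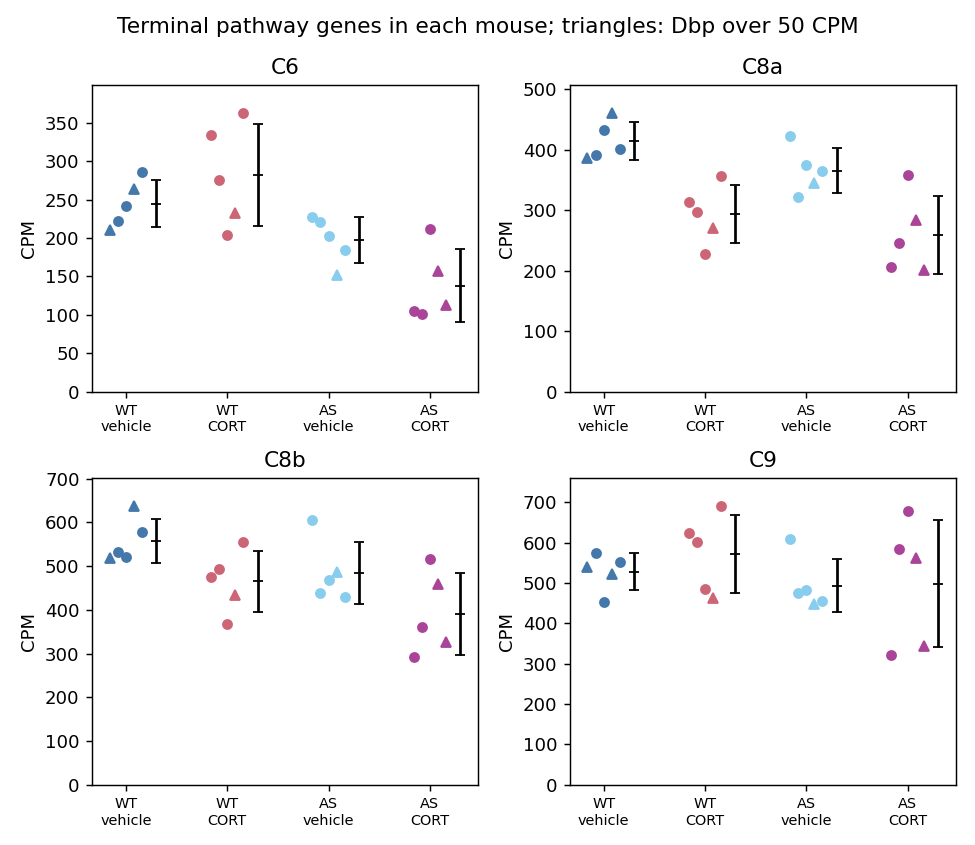
C6, C8a, C8b and C9 in each liver in CPM on a linear axis from 0, with triangles for mice with Dbp over 50 CPM and black marks for the mean and SD of 5 mice. C6 runs from 205 to 363 CPM in WT CORT and from 101 to 212 CPM in AS CORT livers.

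Members that lie next to each other did not always move together. F7 (chr8:13026034-13035809) and F10 (chr8:13037308-13056676) follow each other on the + strand, and F7 rose while F10 fell. C1ra (chr6:124512405-124523443) and C1s1 (chr6:124530345-124542359) lie on opposite strands, and C1ra fell while C1s1 rose. C8b (chr4:104766317-104804548) and C8a (chr4:104815679-104876398), also on opposite strands, both fell, as did Klkb1 and F11 on chromosome 8. With the unaligned reads as a covariate only F7 of these genes passed, and C8b and F11 changed sign. These are gene spans of GENCODE M21 on GRCm38, to which the submitters' mm10 corresponds.

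The members covered a wide range of levels. Per kilobase of exon and averaged over the 20 livers, Ahsg was highest at 3271 CPM, followed by C3 at 1745, Vtn at 1134, Plg at 683 and Kng1 at 599.8 CPM per kilobase. Pros1 was lowest at 10.4, then Masp1 at 23.3 and F11 at 43.0 CPM per kilobase, with C2, Cfb and Klkb1 left out of this order because of their shared exons. Within groups, Cfb (0.35), C6 (0.32), C9 (0.29), C8b (0.24), C8a (0.23) and Mbl1 (0.21) varied most between mice, as the SD of log2 CPM, and these 6 were the only members above the median of all genes (0.19).

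Other genes of the pathways, from lists of 25 each, moved as follows. Beside each count of this paragraph stand 17.5% of all genes that rose and 19.6% that fell. Of 20 coagulation genes that could be tested, 6 rose and 5 fell. Of 16 complement genes, 2 rose and 10 fell (median -0.41). Mcfd2, needed for the export of factors V and VIII, rose by 0.54 ± 0.061, and Apoh, beta-2-glycoprotein I, by 0.40 ± 0.057. Tfpi, the inhibitor of tissue factor, fell by 1.02, Colec11, a collectin, by 0.52 and Cfp, properdin, by 0.72. The fibrinogen genes Fga, Fgb and Fgg were at -0.073 ± 0.12, -0.081 ± 0.10 and -0.051 ± 0.13 and did not pass (adjusted p from 0.573 to 0.787). C1qa, C1qb and C1qc, which macrophages make, fell by 0.70, 0.78 and 0.78. Beside them 7 of 8 Kupffer cell markers fell, and the summed level of the 8 was 145 to 277 CPM with vehicle and 74.3 to 110 CPM with CORT, with none at 0 throughout. Marco, the other one, was at 0.44 ± 0.26 and did not pass. Of 7 endothelial markers 5 fell and 1 rose, with sums of 134 to 245 and 118 to 198 CPM, and 4 of 4 red blood cell genes fell. In whole liver, fewer cells of a type and less RNA per cell cannot be told apart, and the part of these cells in any member's change was not tested. Of 12 genes of the acute phase, 4 rose and 6 fell. Hp, haptoglobin, rose by 1.04 ± 0.082 and Lcn2, lipocalin 2, by 2.83 ± 0.27, while Saa1 and Saa2, serum amyloid A, fell by 1.96 and 1.08. Saa2 was at -1.57 ± 0.56 with the unaligned reads as a covariate and did not pass (adjusted p = 0.0690). Orm1 rose by 0.18 ± 0.061 (adjusted p = 0.0260), and its call was lost with upper-quartile scaling (adjusted p = 0.0958), without L14 (0.0510) and with the unaligned reads as a covariate (0.344, at 0.19 ± 0.12). Of 16 transcription factors of hepatocytes, 5 rose and 5 fell. Hnf4a rose by 0.34 ± 0.061 and Cebpb by 1.27 ± 0.23, a call that was lost with the unaligned reads (1.005 ± 0.50, adjusted p = 0.196). Among those that fell were Stat5b (by 0.52), Nr0b2 (by 0.65), Foxa1 (by 0.37) and Nr3c1. Leaving out 1 mouse ended the call of Nr0b2 in 12 of 20 fits and that of Foxa1 in 8, Foxa1 was lost without the 6 mice high in Dbp (adjusted p = 0.130), and with the unaligned reads as a covariate Stat5b was at -0.58 ± 0.25, Nr0b2 at -0.25 ± 0.48 and Foxa1 at -0.12 ± 0.26, none of which passed (adjusted p from 0.134 to 0.810). In the 6 mice high in Dbp alone Nr0b2 was at 0.56. Cebpa was at -0.039 ± 0.13 and did not pass.

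In the hippocampus of the same cohort (18 libraries, after the study's exclusion of H9 and H13), 28 of the 37 members did not pass the filter, none of them with a mean above 1.40 CPM. Of the 9 that passed (Pros1, Serpind1, C1ra, C4b, C4bp, Masp1, Masp2, C8g and Vtn), 2 fell with CORT and none rose (4 fell with H9 and H13 included), beside 9.67% of all genes called in either direction. Vtn, which did not pass in liver, was at 52.3 to 67.9 CPM in the 8 vehicle libraries and at 38.2 to 48.2 CPM in the 10 CORT libraries, without overlap. It fell by 0.40 on the log2 scale (SE 0.052, adjusted p = 4.08e-05). Serpind1 was at 1.45 to 4.77 CPM with vehicle and 0.553 to 1.90 CPM with CORT, with overlap, and fell by 1.43 (SE 0.23, adjusted p = 0.000422). The vehicle libraries H1 and H2 held Alb at 88.7 and 30.8 CPM, against at most 2.78 CPM in the other 16, and C3 at 8.32 and 3.89 CPM. Without H1 and H2 both calls remained. Ttr, transthyretin, which the choroid plexus makes as well as the liver, was at 43.4 to 2686 CPM in the vehicle libraries (1169 in H6 and 2686 in H17) and at 2.97 to 385 CPM in the CORT libraries, with overlap, and its part in the falls of Vtn and Serpind1 was not tested.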

How the data were processed

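RNA was taken from frozen liver (and hippocampus), enriched for mRNA, made into stranded libraries and sequenced as paired ends on the DNBSEQ platform. Per the labels, the authors checked reads with FastQC and MultiQC, aligned them with STAR to mm10 and counted them per gene with HTSeq, all within the BioWDL RNA-seq pipeline, whose release the study's methods name; versions of the single tools, the annotation release and the strand setting are not given in the sources used here. The deposited values are raw counts of reads per gene, with 5 rows for reads given to no gene (15.4 to 23.3% of all reads in liver), which were left out of library sizes and tests. HTSeq sets aside reads that overlap more than 1 gene, which lowers the counts of genes with shared exons. The authors' acute-treatment table was not used.

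Genes with over 20 median-of-ratios normalized counts in at least 3 mice of a group were kept, following the wording of the study's methods; the set kept here is not identical in size to the study's. Counts were fitted with edgeR 4.0.16 (TMM scaling, quasi-likelihood test, 4 groups in 1 design; R 4.3.3), with Benjamini-Hochberg adjustment over all genes tested and a threshold of 0.05. Errors (±) are standard errors of log2 fold changes unless an SD is named. CPM use TMM-scaled library sizes, and log2 CPM a prior count of 2. No deposited comparison was used. Symbols and exon lengths come from GENCODE M21. Alternatives used DESeq2 1.42.0, limma 3.58.1 (voom) and sva 3.50.0. The fit was tested on simulated data. The members, gene lists and tests were chosen with earlier results of these data known, and the splits by Dbp, by Alb and by unaligned reads were added after seeing the data. Genes described mouse by mouse are the 14 with the smallest adjusted p of the averaged CORT effect and any that passed a genotype contrast; of the other pathway genes, up to 8 with the smallest adjusted p were to be named, with 10 reference genes; others were named after their values were seen. Each sample is 1 mouse by the study's methods, and floors cover counting error only.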

Additional observations from a re-analysis of the deposited data

Results flagged for a closer look

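Of 148 combinations of a member and a liver group of 5 mice, 5 held a mouse far from the other 4, where chance flags about 1 in 20. L7 was high in F10 among AS CORT livers (553.8 CPM, others 486 to 504 CPM). L3 was low in Serpinf2 among WT CORT livers (768.9 CPM, others 896 to 941 CPM), and L11 was high in Serpinf2 among AS vehicle livers (1323 CPM, others 1031 to 1087 CPM). L18 was high in C3 among AS CORT livers (13830 CPM, others 10570 to 11360 CPM). L11 was also high in C9 among AS vehicle livers (607.8 CPM, others 447 to 481 CPM). L7 and L3 are among the 6 mice high in Dbp.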

How the results depend on the processing

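The count of members past the threshold for the averaged CORT effect was 23 with DESeq2 size factors, DESeq2, limma-voom, 1 surrogate variable and Dbp as a covariate, 24 with upper-quartile scaling, 21 without a filter, and 22 to 23 when each mouse was left out. It was 4 in the 6 mice high in Dbp alone (1217 of all genes) and 12 with the unaligned reads as a covariate (1791 of all genes), where WT mice gave 10 members (1317 genes) and AS mice 10 (1424 genes). Leaving out each mouse gave 16 to 17 members (1821 to 2390 genes) in WT and 13 to 20 (2803 to 3748 genes) in AS mice, and 4184 to 4743 genes for the averaged effect. Why these counts moved was not tested. The fits of the 6 mice alone and those that left out a mouse held fewer mice, while the others held every liver.

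For AS against WT with CORT (1 member, 34 genes) the members numbered 2 by DESeq2, 0 with the 2 groups alone, 0 without the 6 mice high in Dbp, 0 with the unaligned reads and 0 to 1 when each mouse was left out (0 without L5, L8, L12 or L16). The genes numbered 93 by DESeq2, 78 by limma-voom, 85 with 1 surrogate variable, 22 without the 6 mice, 52 with Dbp and 62 with unaligned reads as covariates, and 12 to 63 when each mouse was left out (12 without L5, 63 without L10). With vehicle (2 genes) they numbered 44 by DESeq2, 0 with the 2 groups alone, 0 without the 6 mice, 7 with Dbp, 1 with unaligned reads, and 1 to 4 when each mouse was left out. For the difference between responses (0 genes) they numbered 2 without a filter, 9 by DESeq2, 1 by limma-voom, 2 with 1 surrogate variable, 1 without the 6 mice, 3 with Dbp, 8 with unaligned reads, and 0 to 1 when each mouse was left out. No member passed in these last comparisons. In the hippocampus 4 members passed with H9 and H13 and 2 whenever 1 mouse was left out (1171 to 1484 genes).

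Some directions turned, mostly of effects that did not pass, but also of F11, C8b, C6 in AS mice and Nr0b2, which had passed. With upper-quartile scaling, which moved the median of all genes from -0.0035 to -0.042, Plg was at -0.019 and Cfb at -0.010. Without a filter Proc was at 0.0064 and Ahsg at 0.010. By limma-voom Proc was at 0.0046, Ahsg at 0.013 and Cebpa at 0.025. Without the 6 mice Proc was at 0.0069, Mbl2 at 0.033, Ahsg at 0.025 and Cebpa at 0.0090. In the 6 mice alone Mbl1 was at 0.078, C9 at -0.10 and Nr0b2 at 0.56. With the unaligned reads F11 was at 0.030, Proc at 0.16, Serpind1 at 0.25, Mbl1 at 0.16, Mbl2 at 0.090, C6 at 0.35 (0.098 in AS mice), C8b at 0.17, Ahsg at 0.13 and Cebpa at 0.31. When each mouse was left out, Proc ranged from -0.035 to 0.014, Ahsg from -0.033 to 0.021, Cfb from -0.082 to 0.086, C9 from -0.0067 to 0.12 and Cebpa from -0.094 to 0.046.

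No paired analysis of the liver groups was made, since each mouse had a pellet of either CORT or vehicle. Cfb rests on few unshared bases, and the part of depth in its spread was not tested.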
